A study of Mus musculus with 16 samples.

Results

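Skeletal myosin heavy chains are the motor proteins of the thick filament, and 6 of their genes were followed here, Myh4, Myh1, Myh2, Myh3, Myh8 and Myh7. They were picked out of the deposited table by gene symbol and are 6 of its 11710 genes. Each sample's level of every isoform, and its share in the sum of the 6, was compared over 16 RNA-seq samples of mouse rotator cuff muscle in 4 groups of 4. The groups were unoperated C57BL/6J (BL6), operated C57BL/6J, unoperated MRL/MpJ (MRL) and operated MRL/MpJ, where the operation removed a rotator cuff tendon and denervated its muscle. Both strains are inbred, and MRL/MpJ mice are known to close ear punches with little scar. The muscle is the supraspinatus in the sample labels and the infraspinatus in the series text. Age, sex and time since surgery are not given in the sources used here, and neither is whether the samples came from separate animals, so p-values measure the spread between these samples.

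A muscle fibre is classed by the heavy chain it makes, since that chain sets how fast the fibre shortens and how much energy it uses. In adult mouse limb muscle Myh7 is the slow chain (type I), Myh2 the fast oxidative chain (IIa), Myh1 the intermediate fast chain (IIx) and Myh4 the fastest chain (IIb). Myh3 is the embryonic and Myh8 the perinatal chain, and both are known to return in regenerating fibres. Nerve activity and load are known to influence which chain a fibre makes.

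Myh3, Myh2, Myh1, Myh4 and Myh8 lie in that order and in the same orientation on chromosome 11, from 67078300 to 67308634 (GRCm38, GENCODE M21), a stretch of 230.3 kb. Myh7 lies on the minus strand at chr14:54970684-54994626. The promoter windows of the 4 fast-type chains are shown because they hold a sequence in common. The windows, from RefSeq (GRCm38.p6), end at the annotated start of each gene or earlier, all on the plus strand, and capitals mark a run of 14 bases found in all 4.
Myh2, chr11:67170777-67171026: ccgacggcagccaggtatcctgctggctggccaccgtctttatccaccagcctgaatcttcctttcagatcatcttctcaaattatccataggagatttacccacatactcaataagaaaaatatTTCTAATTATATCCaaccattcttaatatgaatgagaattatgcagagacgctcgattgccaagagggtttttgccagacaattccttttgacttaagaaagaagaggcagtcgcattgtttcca
Myh1, chr11:67199852-67200051: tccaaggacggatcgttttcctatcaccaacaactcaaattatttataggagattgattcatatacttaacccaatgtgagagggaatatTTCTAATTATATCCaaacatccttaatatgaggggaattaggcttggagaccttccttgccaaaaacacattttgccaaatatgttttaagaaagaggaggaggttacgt
Myh4, chr11:67237562-67237811: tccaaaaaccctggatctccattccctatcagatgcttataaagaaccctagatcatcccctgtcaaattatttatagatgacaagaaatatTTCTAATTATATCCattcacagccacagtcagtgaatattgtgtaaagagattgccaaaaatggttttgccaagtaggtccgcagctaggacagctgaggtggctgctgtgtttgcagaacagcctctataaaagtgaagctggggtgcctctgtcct
Myh8, chr11:67276874-67277123: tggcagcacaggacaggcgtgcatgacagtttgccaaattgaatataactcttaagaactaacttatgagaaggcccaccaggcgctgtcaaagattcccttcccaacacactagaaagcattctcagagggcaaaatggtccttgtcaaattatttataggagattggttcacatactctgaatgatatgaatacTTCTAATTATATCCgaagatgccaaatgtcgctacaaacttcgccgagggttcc
Of 32851 windows of 250 bases before a RefSeq start, TTCTAATTATATCC was found on either strand in 4, which are those of Myh2, Myh1, Myh4 and Myh8. The run began 125 bases before the RefSeq start in Myh2, 160 in Myh1, 158 in Myh4 and 54 in Myh8. The longer run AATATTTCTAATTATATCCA was found in 3 windows, those of Myh2, Myh1 and Myh4. A second run, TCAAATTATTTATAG, occurred in 3 windows, those of Myh1, Myh4 and Myh8. The 14-base run was not in the windows of Myh3 and Myh7. With all 250 bases of each window aligned, those of Myh2 and Myh1 were 70.1% identical over 197 aligned bases. Those of Myh1 and Myh4 were 64.0% identical over 200, and that of Myh8 was 56.5% to 62.3% identical to the other 3. Among short motifs searched on both strands, TATAAA occurred 3 times in the Myh4 window, 2 times in that of Myh1, 1 time each in those of Myh3 and Myh8, and not in those of Myh2 and Myh7, against 12.37% of all windows with at least 1; the search covered 250 bases also for Myh1, whose printed window stops at the first exon of GENCODE. CATTCC, the core of a site of TEAD factors, occurred 1 time each in the windows of Myh1 and Myh4 and in 1 of the 2 Myh7 windows, against 12.64% of all windows. CANNTG, the E-box bound by myogenic factors, occurred 2 times in the Myh4 window and 1 time each in those of Myh3 and Myh8. It occurred 1 and 2 times in the 2 Myh7 windows and not in those of Myh2 and Myh1, against 66.22% of all windows. These matches describe letters only.

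The coding sequences are alike as well, which bears on how reads are assigned. Identity was 91.0% between Myh2 and Myh1, 90.1% between Myh1 and Myh4, and 87.9% between Myh8 and Myh4, while Myh3 was 80.2% to 81.0% identical to the fast-type chains and Myh7 76.7% to 77.5% identical to the other 5. Of all 50-base windows of the Myh2 transcript, 26.7% occurred unchanged in another of the 6, compared with 26.06% for Myh1, 19.89% for Myh8, 18.59% for Myh4, 3.66% for Myh3 and 0.21% for Myh7. The longest stretch that Myh8 shares with Myh4 without a mismatch has 164 bases, coding bases 2950 to 3113 of Myh8, and is shown because Myh4 was the most abundant and Myh8 among the scarcest of the 6.
Myh8 and Myh4, shared coding stretch: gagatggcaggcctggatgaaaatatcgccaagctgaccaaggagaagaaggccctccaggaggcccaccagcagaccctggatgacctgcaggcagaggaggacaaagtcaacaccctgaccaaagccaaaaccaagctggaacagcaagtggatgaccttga
A read from this stretch cannot be assigned to either gene by its sequence. The counting program and its treatment of such reads are not given in the sources used here, so the levels of the fast-type chains, Myh8 among them, are uncertain by an unknown amount.

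Each library was muscle by its markers: all 9 listed myofibre genes were detected, and their summed level ranged from 44839 to 116548 CPM (counts relative to the total of the sample, scaled with edgeR's trimmed mean of M values). Total counts were 24323862 to 43552964 per sample, and 3 counts, taken as the floor, were worth 0.0689 to 0.123 CPM. All 6 chains lay above that floor in each sample, and the lowest, Myh7 in operated MRL replicate 2, was at 0.936 CPM. Of cardiac markers only Myh6 was analysed here. In bulk RNA, fewer cells of a type and less RNA per cell cannot be told apart.

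The levels had a fixed order. Per kb of exon, Myh4 lay above Myh1, and Myh1 above Myh2, in 16 of 16 samples, and these 3 together made at least 99.2% of the family in each sample. In unoperated BL6 the levels per kb were 5972 ± 1987 CPM for Myh4 (SD, n = 4), against 218 ± 42.5 for Myh2. Myh3 was at 1.37 ± 0.389, Myh7 at 1.08 ± 0.804 and Myh8 at 0.615 ± 0.0962 CPM per kb in the same group. The order among those 3 varied: per kb of merged exons Myh3 was highest in 8 samples, Myh7 in 5 and Myh8 in 3. With the length of the longest coding transcript, tried after seeing the data because the merged exons of Myh8 (11772 bases) are much longer than its 6149-base transcript, these counts were 6, 6 and 4. Even where they came closest, Myh2 was 16.4-fold above the highest of Myh3, Myh7 and Myh8 in the same sample, per kb.

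**Figure D1:**
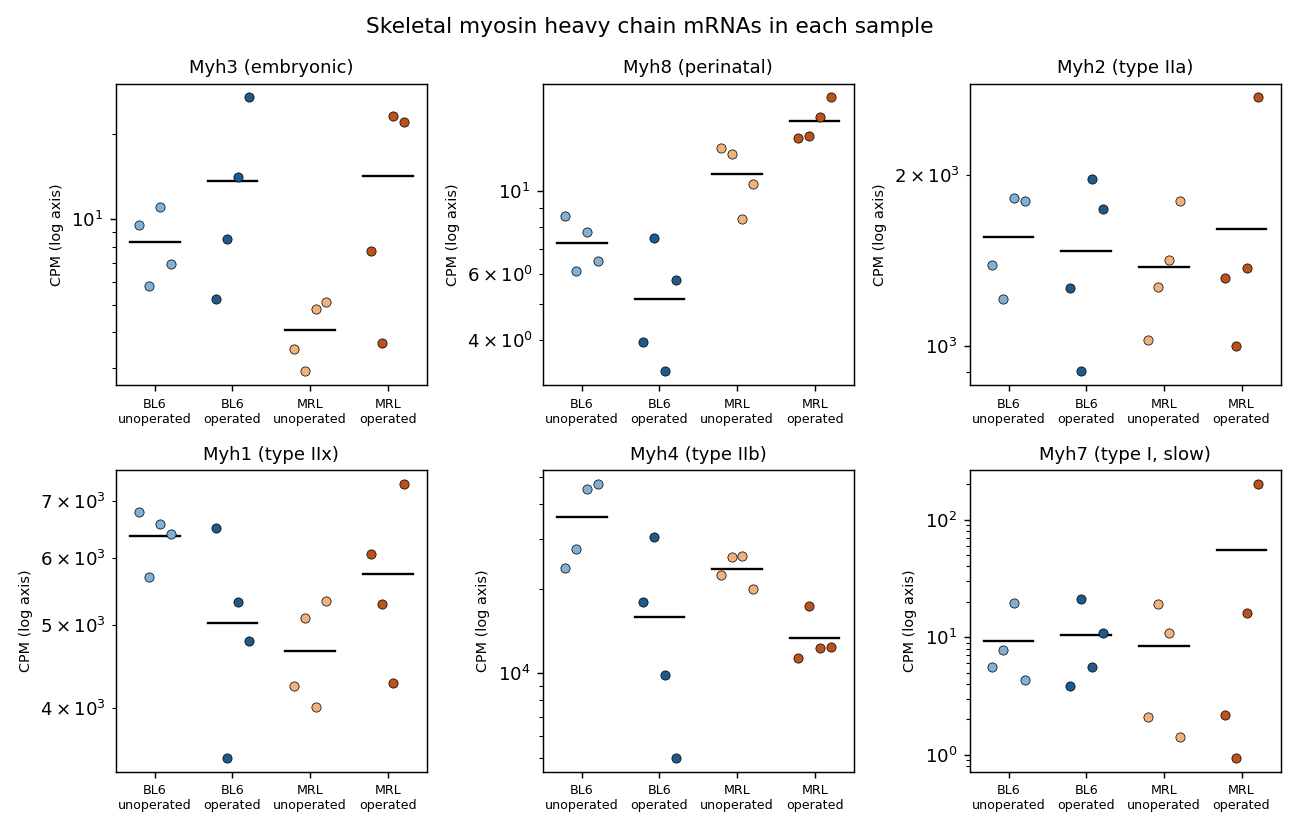
CPM of each chain (log axis) in the 16 samples, with a point per sample and a bar at the mean of each group of 4. Myh4, Myh1 and Myh2 lie orders apart from Myh3, Myh8 and Myh7, Myh4 is lower after surgery in most samples, Myh8 separates the operated groups by strain, and Myh7 has a single high sample at 201 CPM.

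Myh4, the IIb chain, was lower after surgery, and it was the only one of the 6 called in BL6. Myh4 stood at 23717, 27659, 45294 and 47035 CPM in unoperated BL6 replicates 1 to 4, and at 17859, 30502, 9872 and 4990 CPM in the operated ones. Operated replicate 2 lay inside the unoperated range and the other 3 operated samples lay below it, so the groups overlapped. The fall was 1.18 on the log2 scale (SE 0.41), a level 2.27-fold lower, and passed edgeR's quasi-likelihood test (adjusted p = 0.0176). In that comparison 67.9% of all genes tested were called, 32.8% as lower, so 1 call among 6 chains is below the background. The call was lost when the 2 BL6 groups were fitted alone (adjusted p = 0.0591, edgeR), and without unoperated replicate 4 (0.0529) or operated replicate 3 (0.0556), with the log2 change ranging from -1.72 to -0.90 over single left-out samples.

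In MRL, Myh4 was at 22346, 25849, 26059 and 19873 CPM in the unoperated samples and at 11282, 17286, 12336 and 12358 CPM in the operated samples. Every operated MRL sample lay below every unoperated one. The log2 difference was -0.82 (SE 0.40), and with the spread shared over all 16 samples it did not pass the test (adjusted p = 0.106, edgeR's quasi-likelihood test). Fitted on the MRL samples alone it passed (adjusted p = 0.0091), and it also passed without operated BL6 replicate 2 (0.0492) or 4 (0.0331), whose Myh4 levels were the highest and lowest of their group. The difference between the strains' responses was 0.36 on the log2 scale (SE 0.57, adjusted p = 0.751, edgeR), so it was not shown. The authors' deposited table gives Myh4 a log2 fold change of -1.09 in BL6 (false discovery rate 0.0187) and -1.08 in MRL (0.0302).

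Myh4 was also set against Acta1, the skeletal muscle actin of the thin filament, which is 1 abundant fibre gene and does not stand for all of them. Acta1 fell by 0.99 on the log2 scale in BL6 (adjusted p = 0.000848) and by 0.76 in MRL (adjusted p = 0.00999, edgeR's quasi-likelihood test in both). Relative to Acta1, Myh4 stood at a log2 ratio of 0.32 ± 0.42 in unoperated and -0.10 ± 0.82 in operated BL6, and at 0.03 ± 0.26 and -0.003 ± 0.352 in the MRL groups (SD, n = 4 each), so these ratios overlapped. Acta1, Atp2a1, Tnni2, Tnnc2, Mylpf, Pvalb, Tpm1, Tnnt3 and Myoz1 were named after their values were seen. Abundant fast-fibre genes were divided: of 12 listed, 4 were called lower in BL6, namely Atp2a1, Casq1, Actn3 and Mybpc2, and 1 higher, Myl1. For Atp2a1 the log2 change was -1.22 in BL6 (SE 0.32, adjusted p = 0.00395) and -0.95 in MRL (SE 0.32, adjusted p = 0.0269). Not called in BL6, with positive changes, were Tnni2 (0.40, SE 0.26, adjusted p = 0.178), Tnnc2 (0.21, SE 0.26, adjusted p = 0.488) and Mylpf (0.17, SE 0.19, adjusted p = 0.450). Also not called, with negative changes, were Pvalb (-0.47, SE 0.41, adjusted p = 0.308), Tpm1 (-0.46, SE 0.24, adjusted p = 0.103), Tnnt3 (-0.21, SE 0.25, adjusted p = 0.475) and Myoz1 (-0.21, SE 0.27, adjusted p = 0.496). All of these come from edgeR's quasi-likelihood test. Fibroblast markers went with the spread of Myh4 in operated BL6: their sum over 6 of 6 genes was 7477 CPM in replicate 4, where Myh4 was lowest, and 1058 CPM in replicate 2, where Myh4 was highest. That sum was 653 to 1567 CPM in BL6 without and 1058 to 7477 CPM with surgery, and in MRL 1383 to 2579 CPM without and 1831 to 3827 CPM with it. Of other cell types, 4 of 4 adipocyte and 4 of 4 smooth muscle markers rose in both strains (edgeR's quasi-likelihood test), where 35.1% of all genes tested were called higher in BL6 and 22.3% in MRL. In BL6 and MRL, in that order, 5 and 4 of 5 Schwann cell, 3 and 4 of 4 endothelial, 4 and 1 of 6 macrophage and 3 and 0 of 6 fibroblast markers rose. The adipocyte sum was 218 to 304 CPM in BL6 without and 1287 to 2166 CPM with surgery, and 268 to 391 and 1319 to 1992 CPM in MRL. The part of these cells in the Myh4 values was not tested.

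Myh1, the IIx chain, and Myh2, the IIa chain, did not pass the test after surgery in either strain. Myh1 was at 6800.4, 5690.2, 6582 and 6402 CPM in unoperated BL6 and at 6496, 3490.1, 5330 and 4789 CPM after surgery. In MRL it was at 4244, 5094, 4003 and 5332 CPM without and at 6062, 5289, 4274 and 7325 CPM with surgery. In both strains the operated and unoperated samples overlapped, with 3 operated samples below all unoperated ones in BL6 and 2 above all unoperated ones in MRL. The log2 differences were -0.34 (SE 0.20, adjusted p = 0.139) in BL6 and 0.30 (SE 0.20, adjusted p = 0.227) in MRL by edgeR's quasi-likelihood test. Without operated BL6 replicate 1 the BL6 difference, then -0.49, passed (adjusted p = 0.0494).

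Myh2 ranged from 1212 to 1822 CPM in unoperated BL6 and from 903 to 1965 after surgery, and from 1023 to 1801 and from 999 to 2739 CPM in the MRL groups. Its groups overlapped in both strains. The log2 difference was -0.08 (SE 0.30, adjusted p = 0.819) in BL6 and 0.22 (SE 0.30, adjusted p = 0.557) in MRL by edgeR's quasi-likelihood test. Relative to Acta1, which itself fell by 0.76 on the log2 scale in MRL, the ratios of Myh1 in MRL did not meet. They stood at a log2 ratio of -2.31 ± 0.12 without and -1.23 ± 0.35 with surgery, with ranges of -2.43 to -2.14 and -1.56 to -0.73. The ratios of Myh8 in MRL did not meet either, at -11.2 to -10.8 without and -10.1 to -9.40 with surgery. In BL6 the Myh1 ratios were -2.12 ± 0.15 and -1.48 ± 0.63 and overlapped.

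**Figure D2:**
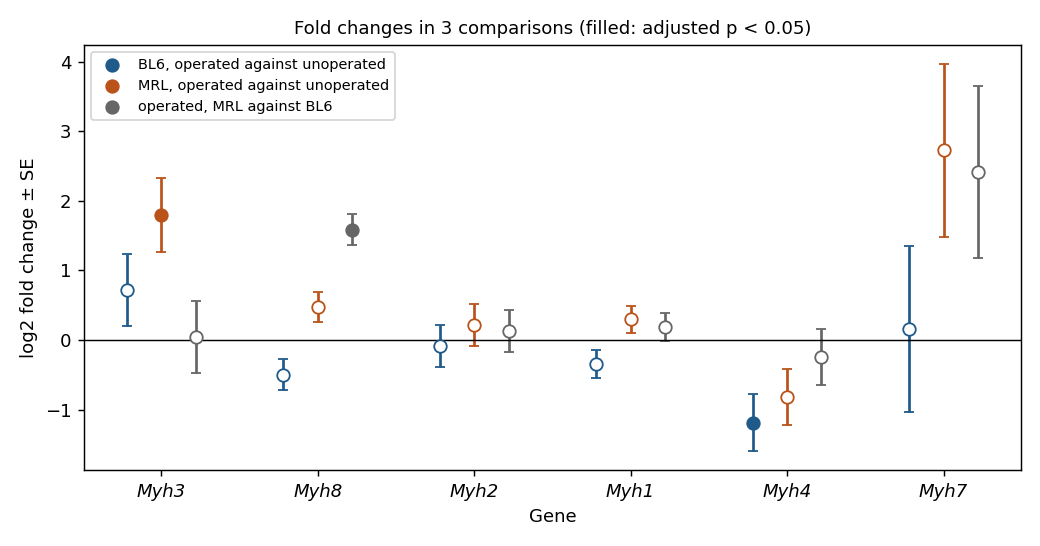
Log2 fold change of each chain with its standard error from the edgeR fit, for surgery in BL6, surgery in MRL, and MRL against BL6 among operated samples, with filled points at an adjusted p under 0.05. The filled points are Myh4 in BL6 (-1.18), Myh3 in MRL (1.80) and Myh8 between the operated strains (1.58).

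The make-up of the family shifted from Myh4 towards Myh1 after surgery in MRL, while in BL6 a mean difference of similar size did not exceed the spread between replicates. A share here is a chain's CPM per kb of exon as a percentage of the sum over the 6 chains. In unoperated MRL, Myh4 made 82.0%, 81.4%, 83.9% and 75.1% of the family, and in operated MRL 62.2%, 74.7%, 70.2% and 56.8%. The operated shares all lay below the unoperated ones, by 14.7 percentage points in the mean (two-sided exact permutation test, p = 0.0286, the smallest that 4 against 4 can give). The share of Myh1 in MRL rose from 15.3% ± 2.84 to 27.03% ± 5.47 (SD, n = 4), again without overlap (exact permutation p = 0.0286). Myh2 was at 4.03% ± 1.17 without and 6.74% ± 2.88 with surgery (exact permutation p = 0.0857), and its samples overlapped.

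In BL6, Myh4 made 75.7%, 81.2%, 85.3% and 86.1% of the family without surgery and 71.2%, 88.2%, 59.5% and 45.2% with it. Operated replicate 2 had the highest Myh4 share of all 16 samples and operated replicate 4 the lowest. The mean difference of -16.0 percentage points was close to that in MRL, and did not pass (exact permutation p = 0.171). Leaving out operated BL6 replicate 2 gave -23.4 points with no overlap between the groups. The Myh1 share was 14.8% ± 4.36 and 26.4% ± 13.2 (p = 0.171) and the Myh2 share 3.10% ± 0.433 and 7.44% ± 5.12 (p = 0.229, exact permutation tests, SD, n = 4). Over the alternatives tried, the exact permutation p in BL6 ranged from 0.0286 to 0.375 for each of Myh4, Myh1 and Myh2. The strains did not differ in this response beyond the spread: the difference of differences was 1.36 points for Myh4 (p = 0.892) and 0.126 points for Myh1 (p = 0.988, exact permutation tests). In all 30 share tests were run over 6 chains and 5 comparisons, and their p-values are raw. After surgery 3 of 6 had a p under 0.05 in MRL, those of Myh4, Myh1 and Myh8, and 0 of 6 in BL6. Shares are parts of the same sum, so a lower Myh4 share means higher shares elsewhere, and these tests are not independent.

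The 6 chains together, of which Myh4 is the largest, took a smaller percentage of unscaled counts in each operated sample than in each unoperated sample of its strain. In BL6 the 6 chains summed to 4.004% ± 0.889 of all counts without surgery and to 2.14% ± 0.637 with it. In MRL the sums were 3.01% ± 0.231 and 2.19% ± 0.325 (SD, n = 4 each). In both strains the highest operated share of counts, 2.90% in BL6 and 2.57% in MRL, lay below the lowest unoperated one, 3.16% and 2.73%. On the TMM scale the BL6 sums overlapped, at 31930.1 to 55254 CPM without and 11566 to 34932 CPM with surgery, and those in MRL did not, at 27022 to 32248 and 18040 to 23594 CPM. These sums are given without a test.

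Myh3, the embryonic chain, rose after surgery in MRL, and was the only one of the 6 called there. It was at 3.48, 2.91, 4.84 and 5.09 CPM in unoperated MRL and at 7.75, 3.68, 23.1 and 21.98 CPM in operated MRL. Operated replicates 3 and 4 were far above the unoperated range, replicate 1 above it and replicate 2 within it. The fibroblast marker sum was 3827 and 3799 CPM in operated replicates 3 and 4, against 1919 and 1831 CPM in replicates 1 and 2. In unoperated MRL replicate 1, with Myh3 at 3.48 CPM, that sum was 2579 CPM. The part of these cells in the Myh3 values was not tested. The rise was 3.47-fold, 1.80 on the log2 scale (SE 0.54, adjusted p = 0.0146 in edgeR's quasi-likelihood test), where 45.0% of all genes tested were called and 22.3% as higher. It was not called with limma voom (1.53, adjusted p = 0.0649) or without operated MRL replicate 3 (1.46, adjusted p = 0.0567, edgeR).

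In BL6, Myh3 was at 9.52, 5.84, 10.99 and 6.93 CPM without and at 5.25, 8.48, 14.1 and 26.8 CPM with surgery. Operated replicate 4, the sample with the most fibroblast marker RNA and the least Myh4, was highest, and the groups overlapped. The log2 difference was 0.72 (SE 0.52, adjusted p = 0.224), and the difference between the strains' responses was 1.07 (SE 0.74, adjusted p = 0.463, edgeR's quasi-likelihood test in both), so a response particular to MRL was not shown. Even at its highest share, 0.242% of the family in operated BL6 replicate 4, Myh3 was a trace next to the adult chains. Without surgery each MRL sample lay below each BL6 sample for Myh3, at 4.08 ± 1.05 against 8.32 ± 2.36 CPM (SD, n = 4), a log2 difference of -1.03 (SE 0.53) that did not pass (adjusted p = 0.253, edgeR) but passed when the unoperated samples were fitted alone (0.0139).

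Myh8, the perinatal chain, was higher in MRL than in BL6 after surgery. It was at 8.56, 6.13, 7.80 and 6.49 CPM in BL6 without surgery and at 3.96, 7.51, 3.29 and 5.77 CPM with it. In MRL it was at 13.1, 12.5, 8.45 and 10.4 CPM without surgery and at 13.9, 14.0, 15.8 and 17.8 CPM with it. All 4 operated MRL samples lay above the other 12 samples. Among operated samples MRL was 3.0-fold higher, 1.58 on the log2 scale (SE 0.22, adjusted p = 0.000144, edgeR's quasi-likelihood test), and no other chain was called in that comparison, where 12.9% of all genes tested were called, 7.60% as higher and 5.27% as lower. This call held under each alternative tried, with a log2 difference of 1.42 to 1.82 over single left-out samples. Of 5 listed developmental genes analysed here, 0 were called higher and 3 lower in MRL among operated samples. Those were Mybph (log2 difference -3.74, adjusted p = 0.000715), Actc1 (-1.62, 0.0145) and Tnnt2 (-1.25, 0.0402, edgeR's quasi-likelihood test). Without surgery 0 were called higher and 2 lower, against 5.02% and 5.36% of all genes tested.

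Neither strain's own change in Myh8 passed, although the MRL groups did not overlap: the log2 difference was -0.49 (SE 0.22, adjusted p = 0.0573) in BL6 and 0.47 (SE 0.21, adjusted p = 0.0841) in MRL by edgeR's quasi-likelihood test. The test of the difference between them gave 0.96 (SE 0.31, unadjusted p = 0.00657, adjusted p = 0.186, edgeR), where 0.248% of all genes tested were called (0.154% higher, 0.0939% lower) and 0 of the 6 chains. Of the 6 interaction tests 2 had an unadjusted p under 0.05, those of Myh8 and Myh1, and DESeq2 and limma voom also called 0. In BL6, Myh8 was called by DESeq2 (adjusted p = 0.047), and without unoperated replicate 2 (0.0492, edgeR) or operated replicate 2 (-0.73, 0.00542, edgeR). In MRL it was called by limma voom (adjusted p = 0.0338), in the MRL samples fitted alone (0.0311, edgeR) and without operated BL6 replicate 2 (0.0438, edgeR). The authors' deposited table lists Myh8 as lower after surgery in BL6 (-0.57, false discovery rate 0.0357), higher in MRL (0.55, 0.0431) and higher in MRL among operated samples (1.66, 0.000111).

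As a share of the family, Myh8 rose in MRL from 0.0197% ± 0.00438 to 0.0395% ± 0.00630 with surgery (SD, n = 4; exact permutation p = 0.0286, no overlap), while in BL6 it was 0.00918% ± 0.00343 and 0.0140% ± 0.00858 (p = 0.4). Myh8 counts were 92 to 678 per sample, far below those of Myh4, and some reads of these genes cannot be told apart by sequence, as in the 164-base stretch above. Across the 16 samples the log2 levels of Myh8 and Myh4 had a Pearson r of -0.00388, given as a description. It pools groups that differ by strain and surgery, so it cannot show how reads were assigned.

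Myh7, the slow chain, varied most of the 6, with a single sample far above the rest. It was at 5.56, 7.78, 19.4 and 4.30 CPM in BL6 without surgery and at 3.87, 21.1, 5.62 and 10.9 CPM with it. In MRL it was at 2.08, 18.99, 10.9 and 1.41 CPM without surgery and at 2.19, 0.936, 16.2 and 201 CPM with it. Operated MRL replicate 4 was 215 times the lowest sample, also of operated MRL, and the groups overlapped throughout. The log2 difference with surgery was 0.16 (SE 1.19, adjusted p = 0.912) in BL6 and 2.72 (SE 1.24, adjusted p = 0.0830) in MRL, and without operated MRL replicate 4 the MRL value was -0.37 (adjusted p = 0.765, edgeR's quasi-likelihood test in all 3). Without operated MRL replicate 2, the lowest sample, it was 3.13 and passed (adjusted p = 0.042, edgeR). Myh7 overlaps transcripts on the opposite strand in the annotation (Mhrt, Gm29015, Gm17428 and Gm31251), and the use of strand in counting is not given in the sources used here, so reads of either strand cannot be told apart.

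Other slow-fibre genes were high in the same sample, which was the highest of 16 for 9 of the 12 on the slow-fibre list; Casq2, Csrp3 and Mybpc1 were the exceptions. In operated MRL replicate 4, Tnnc1 (slow troponin C) was at 84.995 CPM, Tnni1 (slow troponin I) at 89.3, Tnnt1 (slow troponin T) at 199 and Myl3 (slow essential light chain) at 57.2, each the highest of the 16 samples. Myh6, the alpha chain known from heart muscle and a neighbour of Myh7, was at 50.1 CPM there and at 0.370 to 6.53 CPM in the other 15. By the Pearson r of log2 CPM over 16 samples among 9620 genes, given as a description, the 3 genes most like Myh7 were Tnnc1 (0.889), Tnni1 (0.812) and Myl3 (0.791). The same sample was highest for Myh2 (2739 CPM) and Myh1 (7325 CPM).

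**Figure D3:**
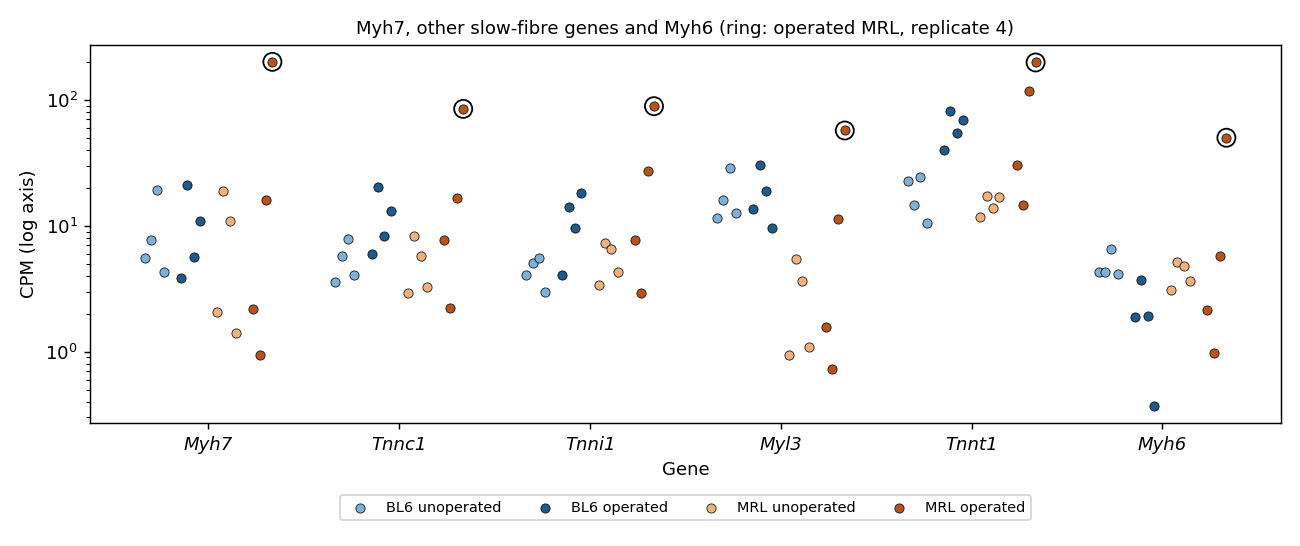
CPM (log axis) of Myh7, other slow-fibre genes and Myh6 in the 16 samples, coloured by group, with operated MRL replicate 4 ringed. That sample is the highest for each of the genes plotted, with Myh7 at 201 CPM and Myh6 at 50.1 CPM.

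Between the strains without surgery none of the 6 chains was called by edgeR's quasi-likelihood test, where 10.4% of all genes tested were called (5.02% higher and 5.36% lower in MRL), and 2 of the 6 had an unadjusted p under 0.05. The log2 difference, MRL over BL6, was 0.62 for Myh8 (SE 0.22, adjusted p = 0.0844), and for Myh1 it was -0.45 (SE 0.20, adjusted p = 0.178), with each MRL sample below each BL6 sample (edgeR). Myh8 was called by DESeq2 (adjusted p = 0.0447), by limma voom (0.0445), in the unoperated samples fitted alone (0.0227, edgeR), a fit that also called Myh1 (0.0177) and Myh3 (0.0139), and without operated BL6 replicate 2 (0.0384, edgeR). For Myh4 the values were 35926 ± 11952 CPM in BL6 and 23532 ± 2975 in MRL (SD, n = 4), which overlapped, and the log2 difference was -0.61 (SE 0.40, adjusted p = 0.384, edgeR).

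Noncoding genes that lie among the chains on chromosome 11 differed between the strains already without surgery, and were singled out after their values were seen. Myhas is an antisense transcript that overlaps Myh1 and begins within the Myh4 promoter window printed above, at chr11:67211256-67237573 on the minus strand. It stood at 86.8 ± 16.3 CPM in unoperated BL6 and 8.02 ± 1.60 in unoperated MRL, and at 46.9 ± 26.8 and 7.10 ± 3.18 in the operated groups (SD, n = 4 each). MRL was lower by 3.44 on the log2 scale without surgery (SE 0.39, 10.8-fold, adjusted p = 1.26e-05) and by 2.73 with it (SE 0.38, 6.64-fold, adjusted p = 0.000129, edgeR's quasi-likelihood test), with all MRL samples below all BL6 samples. Whether reads of both strains align equally well to the reference genome was not tested. In BL6, Myhas fell with surgery by 0.89 (SE 0.35, adjusted p = 0.0341, edgeR). The groups overlapped, with operated replicate 2 at 84.2 CPM inside the unoperated range of 62.9 to 99.2. Alternative fits of this surgery call are not given here. Myh4 was called lower in the same comparison (-1.18), also with operated replicate 2 inside the unoperated range. Myh1, on the strand opposite to Myhas, did not pass in any of the 5 comparisons.

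9430073C21Rik, annotated antisense to Myh2 at chr11:67195680-67199234, went the other way, at 2.33 ± 0.333 CPM in unoperated BL6 and 7.48 ± 1.16 in unoperated MRL (log2 difference 1.68, SE 0.19, adjusted p = 1.48e-05, edgeR's quasi-likelihood test). Among operated samples the log2 difference was 1.32 (SE 0.19, adjusted p = 0.000196, edgeR). Because strand use in counting is not stated, reads of these antisense genes cannot be told apart from reads of Myh1 and Myh2 where they overlap. 2310065F04Rik, a long noncoding RNA between Myh3 and Myh2, was higher in MRL without surgery (280 ± 25.9 against 138 ± 3.95 CPM; log2 difference 1.02, SE 0.29, adjusted p = 0.0326, edgeR). That call was kept in 13 of 22 alternative fits, while those of Myhas and 9430073C21Rik were kept in all 22 in each state. Of the 9 genes counted in the stretch from Myh3 to Myh13, 2 were called higher and 1 lower in MRL in each state, against 5.02% and 5.36% of all genes tested without surgery and 7.60% and 5.27% with it. The higher ones were 9430073C21Rik with 2310065F04Rik without surgery and 9430073C21Rik with Myh8 after it, and the lower one was Myhas in both.

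**Figure D4:**
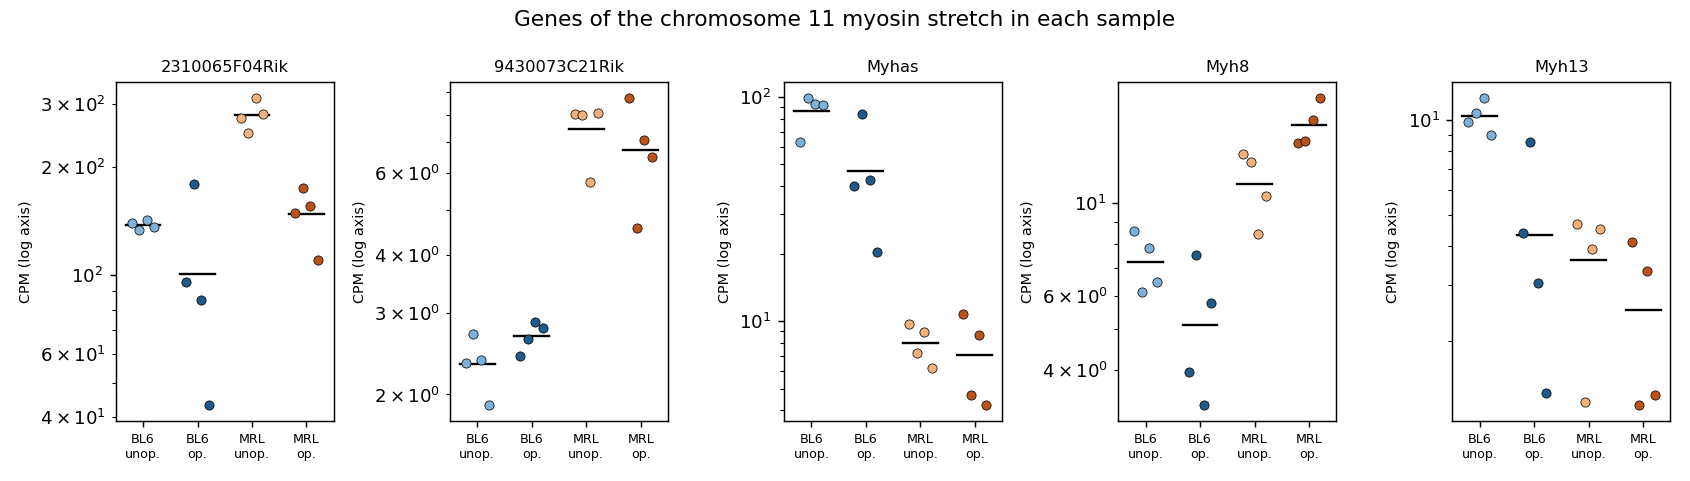
CPM (log axis) of genes of the chromosome 11 stretch in the 16 samples, with a bar at each group mean. Myhas separates the strains by an order of magnitude (86.8 against 8.02 CPM without surgery), 9430073C21Rik separates them in the opposite direction, and Myh8 separates them among operated samples, while its unoperated groups overlap.

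The other genes of the fibre programme were taken from lists, and their counts are read against the shares of all genes called, 35.1% higher and 32.8% lower in BL6 and 22.3% and 22.7% in MRL (edgeR's quasi-likelihood test throughout). The median log2 change over all genes was 0.04 in BL6 and 0.01 in MRL. Of 12 fast-fibre genes, 1 rose and 4 fell in BL6 and 0 rose and 5 fell in MRL, with medians of -0.34 and -0.57. Without operated BL6 replicate 2, 8 fell in BL6. In MRL, 1 fell without unoperated replicate 2 or operated replicate 1 or 3, and the count ranged from 1 to 7 over single left-out samples. Casq1, the calcium store protein of the sarcoplasmic reticulum, fell by 1.48 in BL6 (SE 0.29, adjusted p = 0.000510) and by 1.21 in MRL (SE 0.29, adjusted p = 0.00557). Actn3, the fast Z-disc actinin, fell by 1.39 (SE 0.43, adjusted p = 0.00981) and 1.29 (SE 0.43, adjusted p = 0.0243), and was among the 3 genes most like Myh4 over the 16 samples (r = 0.967), with Phka1 (0.973), a subunit of muscle phosphorylase kinase, and Ddx1 (0.968). Mybpc2, the fast myosin-binding protein C, fell by 1.34 (SE 0.34, adjusted p = 0.00318) and 1.05 (SE 0.34, adjusted p = 0.0217). Myl1, a fast essential light chain, rose in BL6 by 0.44 (SE 0.16, adjusted p = 0.0247), a call lost without unoperated BL6 replicate 3 or 4 or operated BL6 replicate 1 or 2, and in the BL6 samples fitted alone.

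Of 12 slow-fibre genes, 4 rose and 1 fell in BL6 and 10 rose and 1 fell in MRL, with medians of 0.73 and 1.23. Without operated MRL replicate 4, the sample with high Myh7, 5 rose in MRL, namely Casq2, Csrp3, Myl2, Tnnt1 and Tpm3, and limma voom also called 5. Csrp3, a Z-disc protein also known as muscle LIM protein, rose by 2.09 in BL6 (SE 0.33, adjusted p = 9.83e-05) and by 1.07 in MRL (SE 0.32, adjusted p = 0.0155). Tnnt1 rose by 1.77 (SE 0.57, adjusted p = 0.0128) and 2.59 (SE 0.59, adjusted p = 0.00399), the latter 1.86 without that sample. Mybpc1, the slow myosin-binding protein C, fell by 1.47 (SE 0.24, adjusted p = 0.000132) and 0.63 (SE 0.24, adjusted p = 0.0431), where the MRL call was kept in 8 of 22 alternative fits (log2 change -1.0 to -0.454, adjusted p up to 0.133). No gene of either list was called in the test of the difference between strains.

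Of 8 genes listed as developmental, most of them sarcomere isoforms, 5 were analysed here, and 4 rose in each strain, with medians of 1.10 and 1.09. Mybph, a myosin-binding protein H, rose from 11.3 ± 5.94 to 145 ± 116 CPM in BL6 (log2 change 3.67, SE 0.62, adjusted p = 0.000145) and from 1.96 ± 0.790 to 10.8 ± 6.37 CPM in MRL (2.46, SE 0.64, adjusted p = 0.00758; SD, n = 4 each). Ncam1, a cell adhesion molecule that spreads over denervated fibres, rose by 1.41 (SE 0.40, adjusted p = 0.00625) and 1.09 (SE 0.40, adjusted p = 0.0388). Myl4, an embryonic and atrial light chain, rose by 1.10 (SE 0.40, adjusted p = 0.0227) and 1.08 (SE 0.40, adjusted p = 0.0379). In BL6, 2 rose without operated replicate 2. In MRL, 1 rose without unoperated replicate 3 and with limma voom, and the count ranged from 1 to 4 over single left-out samples.

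Of 22 regulators of these genes analysed here, 4 rose and 15 fell in BL6 and 3 rose and 13 fell in MRL, with medians of -0.88 and -0.57. In MRL the number that fell was 8 without operated replicate 3 and 17 without operated replicate 4, and the number that rose was 1 without unoperated replicate 2, 3 or 4 or operated replicate 3, and 1 when scaled by library totals only. Myog, the myogenin transcription factor that is known to rise with denervation, rose from 3.06 ± 1.24 to 12.7 ± 4.05 CPM in BL6 (log2 change 2.05, SE 0.32, adjusted p = 9.26e-05) and from 3.05 ± 1.16 to 11.004 ± 2.98 CPM in MRL (1.85, SE 0.32, adjusted p = 0.00120; SD, n = 4 each). Nfatc4 and Nfatc2, calcineurin-regulated factors, also rose in both strains. Sox6, a repressor of slow-fibre genes, fell by 2.03 (SE 0.30, adjusted p = 6.28e-05) and 1.43 (SE 0.30, adjusted p = 0.00265). Tead1, which binds CATTCC, fell by 1.94 (SE 0.30, adjusted p = 8.09e-05) and 1.69 (SE 0.30, adjusted p = 0.00125).

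Of 8 genes of myosin folding and turnover, 1 rose and 4 fell in BL6 and 1 rose and 3 fell in MRL, with medians of -0.62 and -0.44. In MRL 0 rose without any 1 of the unoperated MRL samples, among others, and with limma voom. Smyd1, a methyltransferase needed for thick filament assembly, fell by 0.89 (SE 0.19, adjusted p = 0.000700) and 0.56 (SE 0.18, adjusted p = 0.0243). Fbxo32, the ubiquitin ligase atrogin, fell by 1.35 (SE 0.37, adjusted p = 0.00456) and 1.27 (SE 0.37, adjusted p = 0.0126), and Trim55, a sarcomeric RING-finger protein, fell by 2.29 (SE 0.33, adjusted p = 5.32e-05) and 1.51 (SE 0.32, adjusted p = 0.00307). Hspa8, a chaperone, rose by 0.98 in BL6 (SE 0.14, adjusted p = 5.23e-05) and not in MRL (-0.19, SE 0.14, adjusted p = 0.292), and it was the only gene of these 7 lists called in the test of the difference (-1.17, SE 0.20, adjusted p = 0.0347). Its level was 178 ± 23.4 CPM in unoperated BL6 and 18.4 ± 1.09 in unoperated MRL (SD, n = 4).

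Of 10 partners in the thick filament, 0 rose and 7 fell in BL6 and 1 rose and 4 fell in MRL, with medians of -0.68 and -0.38. In BL6, 4 fell without unoperated replicate 3 or 4 or operated replicate 3 or 4, and in MRL 1 fell without unoperated replicate 2 or operated replicate 1 or 3. Mylk4, a myosin light chain kinase family member, fell from 2425 ± 463 to 297 ± 298 CPM in BL6 (log2 change -3.03, SE 0.61, adjusted p = 0.000567) and from 2333 ± 679 to 421 ± 187 CPM in MRL (-2.47, SE 0.60, adjusted p = 0.00550; SD, n = 4 each). Of 7 other heavy chains analysed here, Myh11 of smooth muscle and Myh9 of non-muscle cells rose in both strains, though 0 rose in MRL without unoperated replicate 2, 3 or 4 or operated replicate 3, or with library totals only. Myh13, a fast chain known from eye muscles that lies next to Myh8, fell in BL6 by 1.25 (SE 0.50, adjusted p = 0.0345), where the count of these chains that fell was 0 without unoperated BL6 replicate 2 or 3 or operated BL6 replicate 1, 3 or 4.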

How the data were processed

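RNA of 16 mouse rotator cuff muscle samples was sequenced, and the deposited table holds raw counts per gene without normalization, 1 column per sample. FastQC, STAR, edgeR and the build mm10 are named in the submitters' processing notes without versions. Whether reads of both strains align equally well to that build was not tested, which bears on each comparison between strains. The counting program, annotation and use of strand are not given in the sources used here. The authors' deposited table of comparisons gives log2 fold changes and p-values with false discovery rates per the file headers, and is quoted only where named.

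Computed from the counts with R 4.3.3: edgeR 4.0.16 (TMM scaling, filterByExpr with a minimum count of 10, which kept 11709 of 11710 genes, quasi-likelihood fit with 1 mean per group over all 16 samples), Benjamini-Hochberg adjustment over all genes tested, a gene called at an adjusted p under 0.05. A standard error is the log2 fold change divided by the square root of the F statistic. Shares divide CPM by merged exon length (GENCODE M21) and were tested by two-sided exact permutation of sample labels. Alternatives used DESeq2 1.42.0, limma 3.58.1, other scaling, no filter, only the groups compared, a replicate block, and each sample left out. The fit was tested on simulated data. Floors cover counting error only, since PCR copies were not marked by molecular identifiers. Replicates differed by more than sampling noise in each pair. Antisense and neighbouring genes were matched by annotation ID.

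The 6 genes and the lists were chosen with earlier results of these data known. Of each list, the text names up to 3 called genes that rose and up to 3 that fell most in BL6, of which 1 is not reported here; for likeness, the 3 with the highest Pearson r of log2 CPM (prior count 2), among genes averaging 5 CPM or more. Genes of the chromosome 11 stretch, the slow-fibre genes beside Myh7, Acta1 with Atp2a1, Tnni2, Tnnc2 and Mylpf, and Myh6 were named after their values were seen. So were Pvalb, Tpm1, Tnnt3 and Myoz1, and the developmental genes named for the operated strains.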

Additional observations from a re-analysis of the deposited data

Results flagged for a closer look

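In operated MRL the Myh7 level of replicate 4, 201 CPM, stood apart from the other 3 samples: its gap to the nearest of them was 0.924 of the group's range, above the value of 0.829 that 4 samples exceed by chance about 1 time in 20. As a share of the family, Myh7 in that sample was 0.645%, with a gap of 0.904 of the range. In operated BL6 the Myh8 share of replicate 4, 0.0267%, stood apart in the same way, with a gap of 0.837 of the range. In that sample Myh4 was at 4990 CPM and the family sum at 11566 CPM, the lowest values of the 16 samples, and Myh8 itself was at 5.77 CPM, within the range of its group. These are 3 of 48 tests over 6 genes, 4 groups and both measures.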

How the results depend on the processing

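Each group held 4 samples, and calls near the threshold moved with single samples. The number of chains called after surgery in BL6 was 1, and 2 with DESeq2, 0 with only the groups compared and 0 to 2 over single left-out samples. In MRL it was 1, and 3 with only the groups compared and 0 to 3 over left-out samples. Between unoperated strains it was 0, and 1 with DESeq2, 1 with limma voom, 3 with only the groups compared and 0 to 1 over left-out samples. It stayed at 1 between operated strains and at 0 for the difference of responses in all alternatives. The causes were not tested. Scaling by library totals only moved the median of all genes by 0.177 (BL6, surgery) and 0.147 (unoperated strains) on the log2 scale.

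Of the alternatives for single chains, 607 log2 changes and 348 share differences kept their direction and side of the threshold, 17 and 6 came to pass, 5 and 17 no longer passed, and 25 and 37 turned. Directions that turned were those of differences that did not pass. For surgery in BL6 the log2 change of Myh2 was 0.12 with library totals only, and that of Myh7 -0.16 with the replicate block. Between operated strains Myh3 was -0.0747 with limma voom and -0.0364 with the block, and Myh4 0.0142 with limma voom. As the log2 of a chain over the sum of the others, the difference of responses was 0.43 for Myh3, the unoperated strain difference -0.11 for Myh7 and the operated one 0.0687 for Myh2.

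Over single left-out samples, log2 changes that turned ranged, for surgery in BL6, from -0.255 to 0.0917 (Myh2) and -0.44 to 0.82 (Myh7). In MRL they ranged from -0.16 to 0.39 (Myh2) and -0.37 to 3.54 (Myh7), and for the difference of responses from -0.0806 to 0.478 (Myh2) and -0.53 to 3.38 (Myh7). Between unoperated strains Myh7 ranged from -0.96 to 0.51. Between operated strains the ranges were -0.29 to 0.62 (Myh3), -0.27 to 0.30 (Myh2), -0.54 to 0.29 (Myh4) and -0.68 to 3.01 (Myh7). Share differences, in percentage points, ranged for the difference of responses from -0.0386 to 0.0351 (Myh3), -3.38 to 0.331 (Myh2), -5.49 to 5.03 (Myh1), -5.56 to 8.75 (Myh4) and -0.0153 to 0.199 (Myh7). Between unoperated strains they ranged from -0.749 to 2.43 (Myh1), -3.58 to 0.379 (Myh4) and -0.00366 to 0.00902 (Myh7). Between operated strains they ranged from -0.0446 to 0.0291 (Myh3), -2.45 to 1.26 (Myh2), -4.98 to 5.54 (Myh1), -7.01 to 7.30 (Myh4) and -0.0113 to 0.203 (Myh7).

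The titles give all groups the replicate numbers 1 to 4, the only hint of pairing. Deviations from the group means did not go together for each number (mean r from -0.141 to 0.165 over pairs of groups), so the numbers were not taken as pairs. With the replicate block the counts of chains called did not change, and the MRL share tests of Myh4, Myh1 and Myh8 gave p = 0.125, the smallest that such an exact permutation allows.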
